A study of Homo sapiens with 4 samples.

Results

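The genes of glycolysis and of the hypoxia-inducible factor (HIF) response were followed in Caco-2 cells, a human colorectal carcinoma line whose confluent layers come to resemble the absorptive cells of the small intestine. The list held 37 gene symbols, and a gene counted as measured when a probe set was annotated with its symbol alone; with several such probe sets, the one with the highest mean over the arrays was used. By this rule 35 of the 37 were measured, among 18417 genes measured in all. CA9 and PGAM1 were not analysed here, the second because each of its probe sets also carried other symbols. All 35 lay above the floor, a log2 intensity of 4.84 (the 40th percentile of probe set means) that 12900 of the 18417 genes reached in their mean, and 0 of them fell under it on any array.

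The cells came from 2 growth supports, regular 6-well plates and Transwell inserts coated with collagen, which are porous membranes that separate an apical from a basolateral compartment. On each support they received vehicle or 2 mM cholate, a primary bile acid given as its sodium salt, for 3 h. On the inserts cholate was given on the apical side. Its solvent was a calcium-free HEPES-buffered saline, and the composition of the vehicle was not given in the sources used here. Differentiation lasted 21 days in all groups per the sample labels, whereas the growth protocol gives 14 days for plates and 14 to 21 days for inserts. Each of the 4 groups was measured on 1 array with RNA pooled from 3 samples, so no difference below has a replicate check. In such a pool, a smaller share of cells with a transcript and less of it per cell cannot be told apart.

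Pairwise correlations between arrays over probe sets above the floor were 0.977 to 0.993 (Pearson), and the array medians lay between 5.64 and 5.73. Of 8 genes fixed as marks of the cell line and of enterocytes, 7 were measured and all 7 were above the floor. CDX2 and KRT20 differed by support. In vehicle and cholate, CDX2 read 8.68 and 8.92 on the plate and 9.68 and 9.48 on Transwell. KRT20 read 5.95 and 5.59 on the plate and 6.34 and 6.42 on Transwell. VIL1, EPCAM, KRT8, ALPI and SI differed by at most 0.33 log2 in any comparison. Of markers of other cells, 3 of 5 for fibroblasts, 2 of 4 for leukocytes and 1 of 3 for endothelium were above it. The leukocyte genes PTPRC (2.87 to 3.05) and CD3E (3.24 to 3.41) were under the floor on every array. So were the fibroblast genes DCN and LUM and the endothelial genes CDH5 and KDR. Above it, the fibroblast genes COL1A1, COL1A2 and PDGFRB read 7.57 to 8.15, 5.19 to 5.30 and 5.11 to 5.58. The leukocyte genes CD14 and CD68 read 8.39 to 8.79 and 8.71 to 9.45, and the endothelial gene PECAM1 5.58 to 6.27.

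HIF is a transcription factor made of an oxygen-labile alpha subunit and the stable partner ARNT. While oxygen is present, EGLN prolyl hydroxylases mark the alpha subunit for capture by VHL and destruction. When oxygen is short the subunit persists. It then binds elements, often with the core ACGTG, in genes for glucose uptake, glycolysis, blood vessel growth and pH control. Glycolysis turns glucose into pyruvate, which lactate dehydrogenase makes into lactate or which enters the mitochondria, and the gut epithelium, which lies against an oxygen-poor lumen, carries basal HIF activity.

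Most of the genes were lowest in the plate vehicle pool. Of the 35 genes, 23 had their lowest value there (65.7%), against 22.9% of all genes above the floor. The highest value was there for 2 genes (5.71%), against 24.6% of all genes. It was in Transwell vehicle for 14 genes (40%, against 25.5% of all genes) and in plate cholate for 12 (34.3%, against 26.2%). For 7 genes the highest value was in Transwell cholate (20%, against 23.8%). The count of genes lowest in plate vehicle depended on the scaling. With each array centred on its median it was 15 of 35, against 16.6% of all genes. After quantile normalization it was 21 of 35, against 19.5%. These differences were mostly small, and 20 of the 35 genes differed by no more than 0.30 log2 in any comparison. The list was chosen with earlier results of these data known. Its shares beside those of all genes, here and below, are therefore descriptions and not tests.

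**Figure D1:**
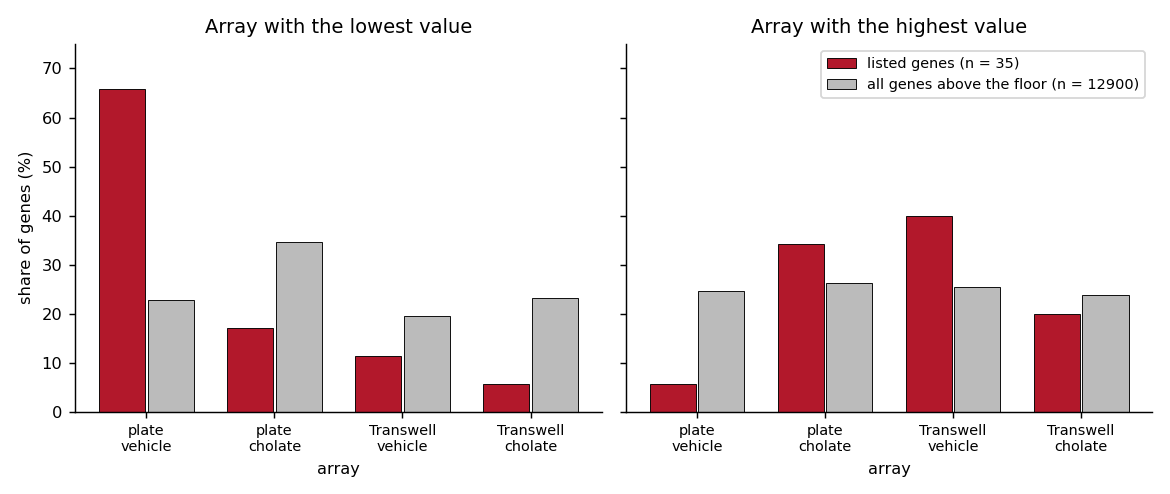
Share of genes, in percent, that have their lowest (left) or highest (right) value on each of the 4 arrays, for the 35 listed genes (red) and all 12900 genes above the floor (grey), on the deposited scale. Of the listed genes 65.7% are lowest in plate vehicle, against 22.9% of all genes. The list was chosen with earlier results of these data known, so the contrast is a description.

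**Figure D2:**
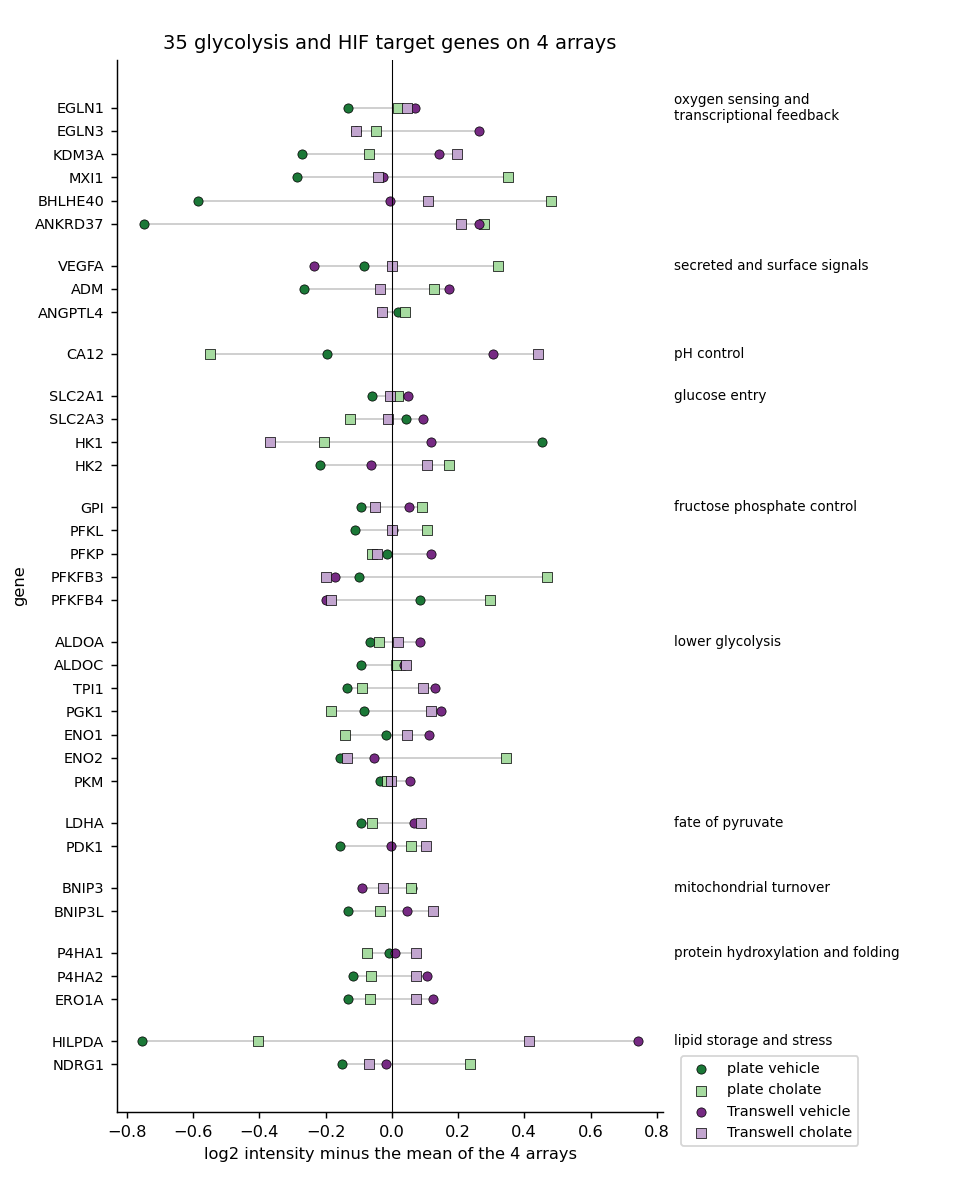
Log2 intensity of each of the 35 genes on each array minus that gene's mean over the 4 arrays, grouped by role; circles are vehicle, squares cholate, green plate and purple Transwell, and the grey line spans the range. The dark green circles (plate vehicle) lie to the left for most genes, farthest for HILPDA, ANKRD37 and BHLHE40, and the highest points vary between plate cholate and the 2 Transwell arrays.

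The first comparison asked how cholate changed these genes on each support; the 2 responses share no array. On the plate 27 of the 35 genes were above 0 and the median was 0.10 log2, against a median of -0.03 and 44.9% of genes above 0 among all genes. This depended on the scaling: with each array centred on its median, 19 of 35 were above 0 with a median of 0.025, against 31.8% and a median of -0.10 among all genes, and after quantile normalization 26 of 35 with a median of 0.10, against 40.3% and -0.05. On Transwell 13 were above 0 (37.1%), against 46.4% of all genes, and 22 below. The median was -0.03, against -0.01 for all genes. With its sign kept, cholate minus vehicle was higher on the plate than on Transwell for 28 of 35 genes, 80.0% against 46.1% of all genes. A less negative difference counts as higher here, so this is not a count of larger changes. Under median centring the count was 25 of 35 against 41.4%, and after quantile normalization 26 of 35 against 42.0%. Both responses were positive for 10 genes and both negative for 5, so 42.9% had the same sign, against 60.8% of all genes.

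At 1.5-fold, 3 genes were higher in cholate on the plate (BHLHE40, ANKRD37 and MXI1), where 1.49% of all genes were, and 1 was lower (HK1), where 2.35% were. Under median centring MXI1 was at 0.57 log2 and no longer past the 1.5-fold line, which left 2 genes. On Transwell 0 genes were higher and 0 lower, where 0.357% and 0.736% of all genes were. With a lower line of 0.32 log2 the plate counts were 10 higher and 2 lower, against 5.74% and 10.3% of all genes, and on Transwell 0 and 3, against 2.73% and 3.48%. With 35 genes, the background alone would place about as few past 1.5-fold on Transwell as were found.

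The second comparison was between the supports, within vehicle and within cholate, and this pair shares no array either. In vehicle 29 of 35 genes (82.9%) were higher on Transwell, against 52.8% of all genes. The median was 0.15 log2, against 0.02 for all genes. In cholate 18 were higher (51.4%), against 53.4% of all genes, and 17 lower. The median of the listed genes there was 0.01, against 0.02 for all genes. After quantile normalization the median of the listed genes became -0.02. At 1.5-fold 2 genes were higher on Transwell in vehicle (HILPDA and ANKRD37; background 1.93%) and 0 lower (3.16%). Under median centring BHLHE40, at 0.60, joined them. In cholate 2 were higher (HILPDA and CA12; background 4.02%) and 1 lower (PFKFB3; 3.75%). At 0.32 log2 the counts were 7 higher and 1 lower in vehicle, against 9.64% and 10.2% of all genes, and 2 and 5 in cholate, against 15.4% and 11.7%. The vehicle comparison shares the plate vehicle array with the plate response to cholate, so a low value on that array raises both differences.

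The test across all 4 arrays was an additive limma fit of support and treatment over 19978 probe sets, with 1 residual degree of freedom, which is the difference between both cholate responses; a gene that differed on only 1 support therefore counted as noisy. By limma with Benjamini-Hochberg adjustment 0 of the 35 genes passed for cholate and 0 for support, in either direction, and 0% of all probe sets did. At an unadjusted p under 0.05 there were 2 genes for cholate (HK1 and VEGFA), against 10.8% of all probe sets, and 5 for support (HILPDA, CA12, KDM3A, PFKFB4 and PGK1), against 22.6%. With the floor raised to the 60th percentile, 807 of 13319 probe sets passed for support (6.06%), HILPDA among them (limma adjusted p = 0.0393) and no other listed gene; with an intensity trend in the variance 293 of 19978 passed (1.47%), with 0 listed genes.

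**Figure D3:**
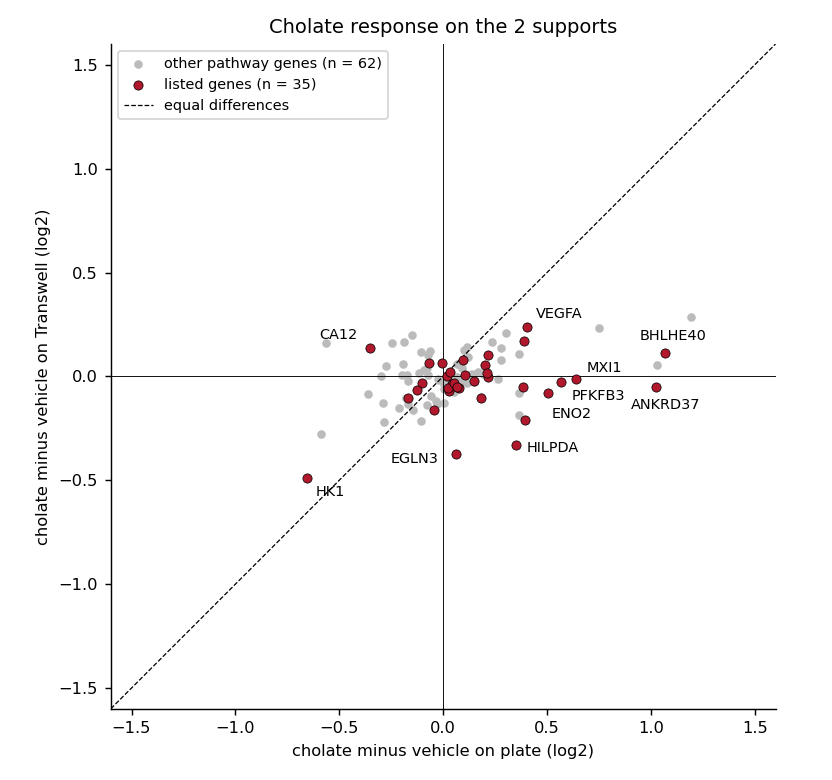
Cholate minus vehicle in log2 units on the plate (horizontal) and on Transwell (vertical) for the 35 listed genes (red) and 62 other genes of the pathway above the floor (grey), 1 array for each condition; the dashed line marks equal responses. The red points spread along the horizontal axis, up to 1.07 for BHLHE40, and lie between -0.49 and 0.24 on the vertical axis.

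ANKRD37, which encodes a small ankyrin repeat protein and is a HIF-1 target, was the clearest case of a gene with 1 array apart. It read 6.75 in plate vehicle, 7.77 in plate cholate, 7.76 in Transwell vehicle and 7.70 in Transwell cholate. The 3 other arrays lay within 0.07 log2 of each other and plate vehicle lay 0.96 below the lowest of them. Cholate minus vehicle was 1.02 on the plate (2.03-fold) and -0.05 on Transwell, and Transwell minus plate was 1.01 in vehicle and -0.07 in cholate. BHLHE40, the helix-loop-helix repressor DEC1 that also damps the circadian clock, read 8.34 in plate vehicle, 9.40 in plate cholate, 8.92 in Transwell vehicle and 9.03 in Transwell cholate. Plate vehicle lay 0.58 below the next array, and the other 3 spanned 0.48, with plate cholate the highest. Its response was 1.07 on the plate (2.10-fold) and 0.11 on Transwell, and the support difference was 0.58 in vehicle (1.497-fold, just short of the 1.5-fold line) and -0.37 in cholate.

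These 2 were the only genes of the list where plate vehicle alone stood apart, defined as a gap to the nearest other array of at least 1.2-fold and larger than the range of the other 3. In both, plate vehicle was the low array, as in 1.33% of all genes; in 0 it was the high array, against 2.29%. Whether the vehicle pool on the plate was low or cholate acted on the plate cannot be told apart for either gene. With a minimum gap of 1.5-fold only ANKRD37 remained (BHLHE40 missed the line at 0.58 log2), and with no minimum gap ADM, ALDOC, EGLN1, PDK1 and PFKL joined, for 7 in all. The share of all genes was not computed at these other minimums, so the counts there have no background beside them. The limma means were 0.49 with an SE of 0.29 for ANKRD37 and 0.59 with an SE of 0.26 for BHLHE40 (adjusted p = 0.584 and 0.510).

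The promoters of these 2 genes are shown because both are known HIF targets and both stood apart in plate vehicle. The windows run from 250 bases before to 50 after the RefSeq start in GRCh38.p14, on the plus strand, at chr4:185396591-185396890 for ANKRD37 and chr3:4979187-4979486 for BHLHE40. Capitals mark ACGTG on either strand, so CACGT is the same motif read on the opposite strand, and CACGTG, the palindrome bound by helix-loop-helix factors, holds 2 overlapping copies of it.
ANKRD37: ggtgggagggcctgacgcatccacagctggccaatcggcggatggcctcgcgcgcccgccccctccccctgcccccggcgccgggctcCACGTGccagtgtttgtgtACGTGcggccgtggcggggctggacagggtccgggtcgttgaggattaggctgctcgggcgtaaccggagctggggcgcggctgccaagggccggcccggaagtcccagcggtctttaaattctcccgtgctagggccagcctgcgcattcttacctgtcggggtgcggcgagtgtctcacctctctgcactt
BHLHE40: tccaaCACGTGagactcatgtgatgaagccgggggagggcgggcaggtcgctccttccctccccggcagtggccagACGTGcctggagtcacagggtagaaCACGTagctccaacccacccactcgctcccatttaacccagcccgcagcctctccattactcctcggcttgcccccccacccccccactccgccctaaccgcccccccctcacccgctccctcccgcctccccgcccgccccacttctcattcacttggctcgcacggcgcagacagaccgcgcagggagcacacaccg
In ANKRD37 the palindrome began at position -162 from the start and a further ACGTG at -143. In BHLHE40 the palindrome began at -245, with a further ACGTG at -174 and a copy on the opposite strand at -149. ACGTG occurred in 21.4% of all 35116 RefSeq promoter windows of 300 bases and CACGTG in 7.26%. Of the listed genes 32 had at least 1 window in the table, 51 windows in all, and 45.1% of these held ACGTG and 15.7% CACGTG. SLC2A3, VEGFA, NDRG1, BNIP3L and HILPDA had none in the table. Only ACGTG and CACGTG were searched, so other forms of the core were not counted. A match describes the letters and is not a measured binding site.

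Among the other genes of oxygen sensing and feedback, MXI1, an antagonist of MYC, read 7.48 in plate vehicle, 8.12 in plate cholate, 7.74 in Transwell vehicle and 7.73 in Transwell cholate. Here plate cholate was the array apart, 0.38 above the next, and the response was 0.64 on the plate (1.56-fold) and -0.01 on Transwell. KDM3A, a histone H3 lysine 9 demethylase, was ordered by support: it read 9.66 and 9.86 in vehicle and cholate on the plate, and 10.08 and 10.13 on Transwell. Transwell minus plate was 0.41 in vehicle and 0.27 in cholate, a limma mean of 0.34 with an SE of 0.09 (adjusted p = 0.170). EGLN3, the prolyl hydroxylase PHD3, was high on another array, at 7.89 in Transwell vehicle, whereas plate vehicle read 7.52, plate cholate 7.58 and Transwell cholate 7.52. It was the only listed gene with Transwell vehicle alone apart, against 1.06% of all genes, in either direction. EGLN1, the main prolyl hydroxylase PHD2, spanned 0.20 log2, from 8.35 in plate vehicle to 8.55 in Transwell vehicle. All 6 genes of this group were above 0 for cholate on the plate (median 0.42), against 44.9% of all genes. Under median centring EGLN3 fell to -0.01 there, and 31.8% of all genes were above 0. On Transwell 2 of 6 were above 0 (median -0.02), against 46.4% of all genes.

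Of the secreted signals, VEGFA, the growth factor for blood vessels, read 8.97 in plate vehicle, 9.37 in plate cholate, 8.82 in Transwell vehicle and 9.06 in Transwell cholate. It was higher in cholate on both supports, by 0.40 and 0.24, a limma mean of 0.32 with an SE of 0.10 (adjusted p = 0.443), and lower on Transwell than on the plate under both treatments. ADM, the vasodilator peptide adrenomedullin, read 8.65 in plate vehicle, 9.04 in plate cholate, 9.08 in Transwell vehicle and 8.87 in Transwell cholate. Cholate minus vehicle was 0.39 on the plate and -0.21 on Transwell, opposite in sign. ANGPTL4, an inhibitor of lipoprotein lipase, read 5.16 to 5.23 on all arrays, close to the floor.

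CA12, a carbonic anhydrase at the cell surface that helps set pH, followed the support. It read 5.95 in plate vehicle, 5.60 in plate cholate, 6.45 in Transwell vehicle and 6.58 in Transwell cholate, so both Transwell values lay above both plate values. Transwell minus plate was 0.50 under vehicle and 0.99 under cholate (ratios of 1.42 and 1.98), a limma mean of 0.74 with an SE of 0.15 (adjusted p = 0.134), and cholate minus vehicle was -0.35 on the plate and 0.14 on Transwell. HILPDA, which blocks the lipase ATGL on lipid droplets, showed the largest support difference of the list. It read 7.24 in plate vehicle, 7.60 in plate cholate, 8.74 in Transwell vehicle and 8.41 in Transwell cholate. Transwell minus plate was 1.499 under vehicle and 0.82 under cholate (ratios of 2.83 and 1.76), a limma mean of 1.16 with an SE of 0.19 (adjusted p = 0.119), while cholate minus vehicle was 0.35 on the plate and -0.33 on Transwell. NDRG1, a stress and differentiation gene, read 11.10 in plate vehicle, 11.48 in plate cholate, 11.23 in Transwell vehicle and 11.18 in Transwell cholate, with plate cholate highest.

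**Figure D4:**
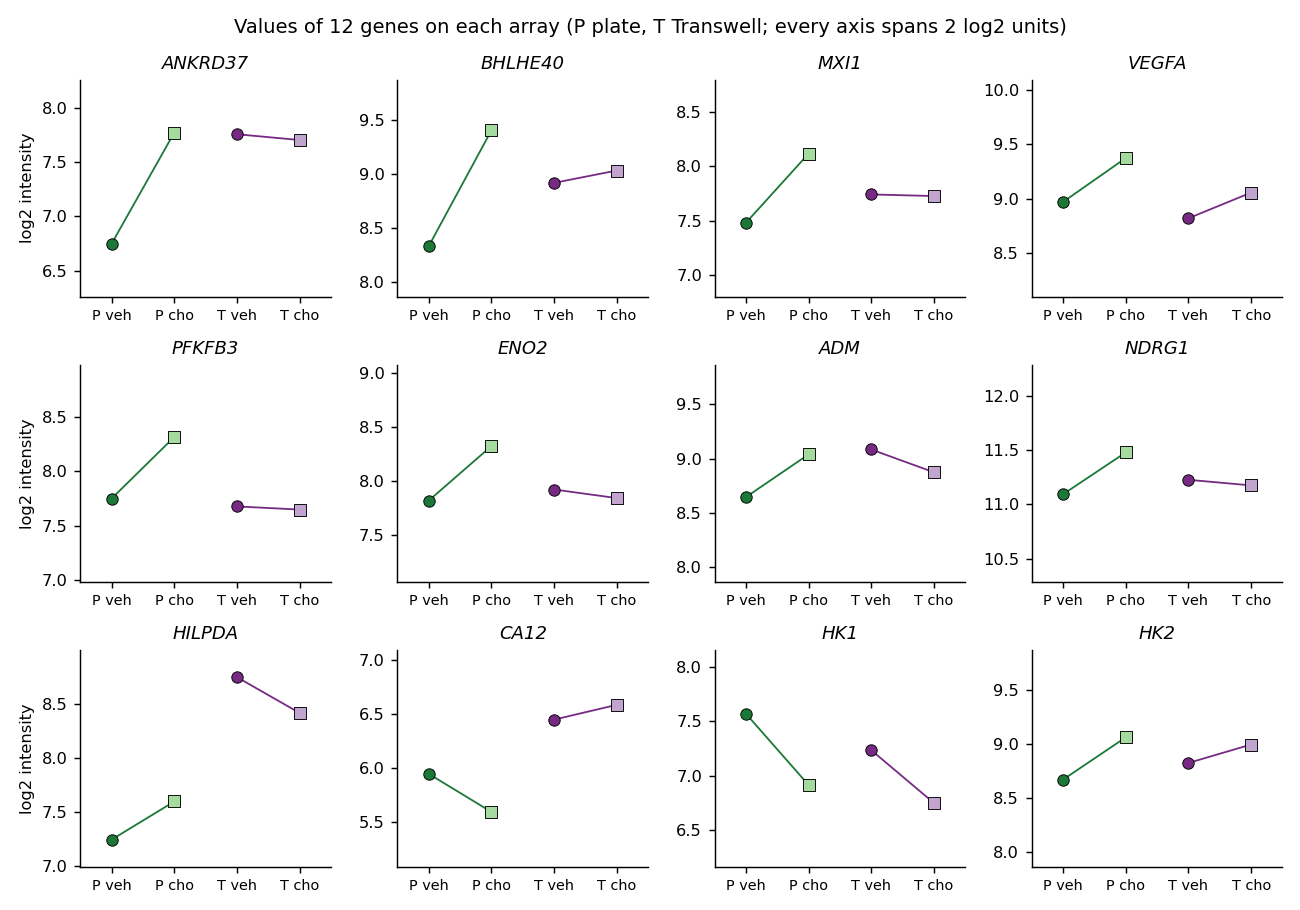
Log2 intensity of 12 genes on the 4 arrays (P plate, T Transwell, veh vehicle, cho cholate), 1 point per array, with lines joining vehicle and cholate on the same support; every vertical axis spans 2 log2 units. ANKRD37 and BHLHE40 are lowest in P veh; MXI1, VEGFA, PFKFB3, ENO2 and NDRG1 are highest in P cho; HILPDA and CA12 are higher on both Transwell arrays; HK1 is lower in cholate on both supports.

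Glucose enters through the transporters of the SLC2A family and is trapped by hexokinases. HK1, the widely expressed hexokinase, was lower in cholate on both supports: it read 7.57 in plate vehicle, 6.91 in plate cholate, 7.23 in Transwell vehicle and 6.75 in Transwell cholate. Both cholate values lay below both vehicle values, with differences of -0.66 on the plate and -0.49 on Transwell, a limma mean of -0.57 with an SE of 0.10 (adjusted p = 0.326). HK2, the hexokinase that HIF induces, went the other way: it read 8.67 in plate vehicle, 9.06 in plate cholate, 8.82 in Transwell vehicle and 8.99 in Transwell cholate. Both cholate values lay above both vehicle values, with differences of 0.39 and 0.17, a limma mean of 0.28 with an SE of 0.10 (adjusted p = 0.472). The 2 hexokinases thus lay on opposite sides of 0 on both supports, with neither passing the test. The transporter gene SLC2A1 (GLUT1) spanned 0.11 log2, from 12.17 to 12.28, and SLC2A3 (GLUT3) 0.22, from 13.15 to 13.37. SLC2A3 has the near-identical copy SLC2A14, whose share in the probe set signal was not tested.

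Fructose phosphates are the point where glycolysis is paced. PFKFB3, the enzyme that makes the sugar bisphosphate activating phosphofructokinase, read 7.75 in plate vehicle, 8.32 in plate cholate, 7.68 in Transwell vehicle and 7.65 in Transwell cholate. Plate cholate lay 0.57 above the next array and the other 3 spanned 0.10. The response was 0.57 on the plate (1.48-fold, just short of the 1.5-fold line) and -0.03 on Transwell, and Transwell minus plate was -0.67 in cholate. PFKFB4, its relative, read 8.23 in plate vehicle, 8.44 in plate cholate, 7.94 in Transwell vehicle and 7.96 in Transwell cholate. Both Transwell values were below both plate values, at -0.28 in vehicle and -0.48 in cholate (limma mean -0.38, SE 0.10, adjusted p = 0.163). The phosphofructokinase genes PFKL and PFKP and the isomerase gene GPI differed by at most 0.22 log2 in any comparison.

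Of the enzymes of lower glycolysis, ENO2, the neuronal-type enolase, was the exception to narrow ranges. It read 7.82 in plate vehicle, 8.32 in plate cholate, 7.92 in Transwell vehicle and 7.84 in Transwell cholate, with plate cholate 0.40 above the next array. The other enolase gene, ENO1, spanned 0.26 log2 with its lowest value, 13.18, in plate cholate and 13.43 in Transwell vehicle. PGK1, which makes the first ATP of the pathway, read 12.26 in plate vehicle, 12.16 in plate cholate, 12.50 in Transwell vehicle and 12.47 in Transwell cholate. Transwell minus plate was 0.23 and 0.30 for PGK1 and 0.26 and 0.19 for the triosephosphate isomerase gene TPI1, with both Transwell values above both plate values in each. The aldolase genes ALDOA and ALDOC and the pyruvate kinase gene PKM spanned 0.15, 0.14 and 0.09 log2. All 7 genes of this group were higher on Transwell in vehicle (median 0.13), against 52.8% of all genes. In cholate 6 of 7 were higher on Transwell (median 0.06), against 53.4% of all genes. That count depended on the scaling, since ALDOC (-0.01) and PKM (-0.03) fell below 0 after quantile normalization.

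LDHA, which makes lactate, read 12.82 and 12.86 on the plate and 12.99 and 13.01 on Transwell, in vehicle and cholate. PDK1, the kinase that keeps pyruvate out of the mitochondria, was lowest in plate vehicle at 9.86, with the other arrays at 10.01 to 10.12. The mitophagy receptor genes BNIP3 and BNIP3L spanned 0.15 and 0.26 log2 and lay on opposite sides of 0 for support, with BNIP3 at -0.15 and -0.08 and BNIP3L at 0.18 and 0.16. The collagen prolyl hydroxylase genes P4HA1 and P4HA2 and ERO1A, the oxidase that forms disulfide bonds in the endoplasmic reticulum, were within 0.07 log2 of 0 for cholate on both supports. All 3 were higher on Transwell under both treatments, ERO1A by 0.26 and 0.14.

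**Figure D5:**
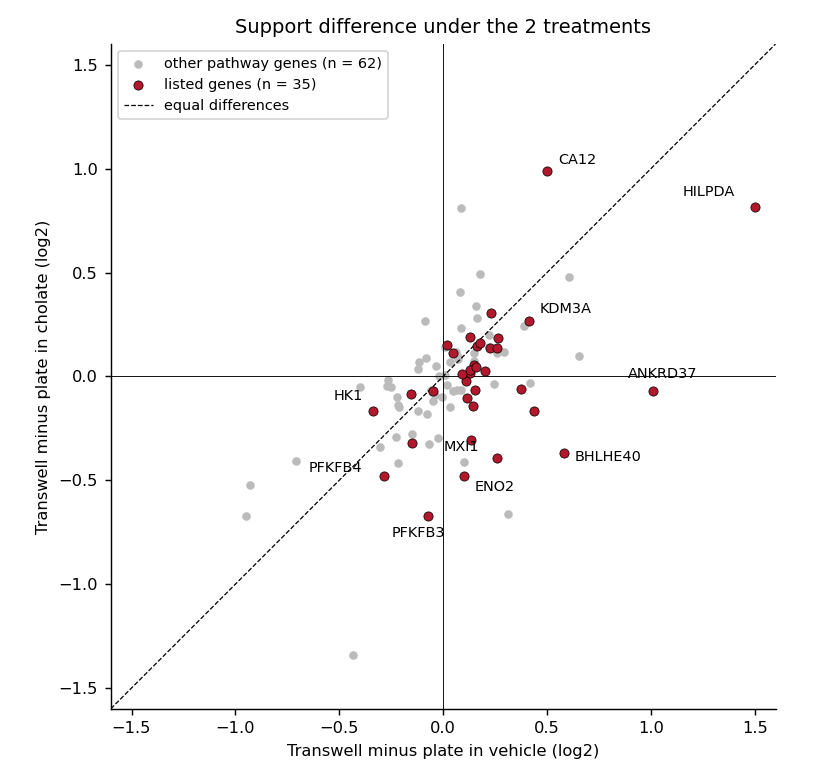
Transwell minus plate in log2 units in vehicle (horizontal) and in cholate (vertical) for the 35 listed genes (red) and 62 other pathway genes (grey), 1 array for each condition; the dashed line marks equal differences. HILPDA (1.499 and 0.82) and CA12 (0.50 and 0.99) lie to the upper right, while ANKRD37 (1.01 and -0.07) and BHLHE40 (0.58 and -0.37) are higher on Transwell in vehicle and not in cholate.

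By array, plate cholate stood apart as the high array for 4 genes (MXI1, VEGFA, PFKFB3 and ENO2), 11.4% of the list against 2.51% of all genes, and as the low array for 0, against 5% of all genes. Transwell cholate stood apart for 0 genes, against 1.26%. These 4 differ from ANKRD37 and BHLHE40 in that their plate vehicle value was close to the Transwell values, within 0.26 log2 of both. The trait was not particular to the list. Among the 62 other pathway genes, plate cholate stood apart as the high array for 5 (DDIT4, JMJD6, RORA, STC2 and CXCR4, 8.06%). It was the low array apart for 3 of the 62 (4.84%).

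A second list of 83 genes held the rest of the pathway, of which 74 were measured and 62 lay above the floor. Its sign counts were nearer to those of all genes. For cholate on the plate 30 of 62 were above 0 (48.4%, median -0.02), against 44.9% of all genes. On Transwell 32 were (51.6%, median 0.00), against 46.4%. In vehicle 31 were higher on Transwell (50%, median 0.00), against 52.8%. Above 0 for cholate on the plate were 21 of 33 other HIF targets and 2 of 9 HIF subunit and control genes. So were 3 of 7 other glycolytic isoforms and 4 of 13 genes of glucose, lactate and pyruvate handling. Plate vehicle alone was the low array for BPGM and SLC6A8, 2 of the 62 (3.23%), against 1.33% of all genes. By limma 0 of the 62 passed for cholate or support in either direction. At an unadjusted limma p under 0.05 there were 5 for cholate and 10 for support. Of all probe sets 10.8% and 22.6% were under that line. With the floor at the 60th percentile 1 passed as higher and 2 as lower on Transwell, against 6.06% of all probe sets. The genes for the HIF alpha subunits were highest in plate vehicle: HIF1A read 10.30 in plate vehicle, 10.11 in plate cholate, 10.05 in Transwell vehicle and 10.06 in Transwell cholate, and EPAS1, which encodes the HIF-2 alpha subunit, read 10.09, 9.81, 9.88 and 9.66 in that order. VHL was lowest in plate cholate (7.36 against 7.64 to 7.77). These are RNA values, and HIF is controlled mostly through the stability of its protein, which was not measured.

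Of the 62 genes, 10 were at least 1.5-fold apart in some comparison, a count whose share over all genes was not computed. For cholate on the plate 3 were higher and 1 lower, against 1.49% and 2.35% of all genes. On Transwell 0 were higher and 0 lower, against 0.357% and 0.736%. Between supports, 2 were higher and 3 lower on Transwell in vehicle, against 1.93% and 3.16%. In cholate 1 was higher and 3 lower, against 4.02% and 3.75%. Among other HIF targets, DDIT4, an inhibitor of mTOR complex signalling, read 9.28 in plate vehicle, 10.47 in plate cholate, 8.85 in Transwell vehicle and 9.13 in Transwell cholate, with plate cholate apart. JMJD6, an oxygenase, read 7.98, 8.73, 8.08 and 8.32 in the same order, and the chemokine receptor gene CXCR4 4.85, 5.88, 5.16 and 5.21, near the floor. In JMJD6 and CXCR4 plate cholate stood apart as well. All 3 genes were higher in cholate on the plate (1.19, 0.75 and 1.03) and less so on Transwell (0.29, 0.23 and 0.05). TIGAR, a phosphatase that draws sugar away from glycolysis, was at -0.59 and -0.28. Others followed the support: in vehicle and cholate, Transwell minus plate was -0.95 and -0.67 for the endothelin gene EDN1, -0.71 and -0.41 for the lipoprotein receptor gene VLDLR, -0.93 and -0.52 for the pyruvate dehydrogenase phosphatase gene PDP1, and 0.60 and 0.48 for the lysyl oxidase gene LOX. The creatine transporter gene SLC6A8 was at 0.65 and 0.10 and TMEM45A at 0.08 and 0.81. The glycolytic gene GAPDH read 13.88 to 13.91 on all arrays.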

How the data were processed

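RNA was profiled with microarrays in 4 pools, 1 array each. The authors deposited 1 log2 intensity for each probe set and array, summarised with RMA per the submitters' processing notes; the program and probe set definition were not given in the sources used here. RMA equalises the arrays, which hides any shift common to most transcripts, and shrinks differences near background. The number of arrays limits the precision.

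Of 33297 probe sets, 19460 carried 1 gene symbol in the platform annotation, 1754 several and 12083 none listed. All 35 measured members matched a RefSeq gene number and 0 needed a new name. The members and gene lists were chosen with earlier results of these data known. The floor was the 40th percentile of the probe set means (4.84), which 19978 probe sets and 12900 genes reached. Differences are log2 differences between 2 arrays; 1.5-fold counts as called, and genes at 0.32 log2 in any comparison, or with plate vehicle alone apart, are given array by array. The second list's genes are named at 1.5-fold. The additive fit used limma 3.58.1 in R 4.3.3 (lmFit, eBayes, prior of 2.83 degrees of freedom, 2-sided, Benjamini-Hochberg adjusted p under 0.05) and was tested on simulated data; its standard errors do not measure the spread between cultures. Alternatives were median centring, quantile normalization, other floors, all probe sets of a gene, a line of 0.32 log2, other gap minimums and a variance trend. No positions are given for probe sets because their build was not stated.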

Additional observations from a re-analysis of the deposited data

Results flagged for a closer look

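HILPDA differed in direction between the supports: plate cells read 0.35 log2 higher in cholate than in vehicle, and the Transwell difference was -0.33. BHLHE40 differed in direction between the treatments: Transwell minus plate was 0.58 in vehicle and -0.37 in cholate. With 1 array per condition neither difference was tested.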

How the results depend on the processing

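No paired analysis was possible because each condition has 1 array. Leaving out an array was not run, because it would end the 2 comparisons that use that array, leave the other 2 as they are, and leave the additive fit no residual degree of freedom. Calling at 0.32 log2 gave, for cholate, 10 plate genes higher and 2 lower and 3 Transwell genes lower, and, for Transwell minus plate, 7 higher and 1 lower in vehicle and 5 lower in cholate. Under median centring the median for cholate on the plate was 0.025 log2, 15 genes were lowest in plate vehicle and 19 were above 0 for cholate on the plate; the settings for these 2 counts were chosen after seeing the data. After quantile normalization the median of Transwell minus plate in cholate was -0.019. With the floor at the 60th percentile 1 gene was at least 1.5-fold higher on Transwell in cholate, since CA12 was no longer included, and 1 gene passed limma as higher on Transwell. Plate vehicle alone stood apart for 1 gene with a gap of 1.5-fold and for 7 with no minimum gap, with no share of all genes computed for either. Of 140 differences of single genes, 21 changed sign under some scaling or probe set choice, none of them larger than 0.07 log2, and 0 called differences reversed.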
